A study of Homo sapiens with 2 samples.

Results

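The APOBEC3 genes are 7 tandem genes on the long arm of chromosome 22, APOBEC3A, APOBEC3B, APOBEC3C, APOBEC3D, APOBEC3F, APOBEC3G and APOBEC3H, out of 20033 protein-coding genes in GENCODE release 44. They were taken by family name, and the rule for membership uses no measured value. Their chromatin accessibility was read from peaks of ATAC-seq, an assay that cuts and tags open DNA with the Tn5 transposase before sequencing. The cells were CAMA-1, an established estrogen receptor-positive breast cancer line, so all values come from 1 line. The line was profiled without any treatment named in the labels, as 2 biological replicates of 50000 cells each, and there was no control or second condition. Each replicate had its own peak list, with 245736 peaks in replicate 1 and 259745 in replicate 2. With a single condition nothing was tested between groups, and the values below describe these libraries.

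APOBEC3 enzymes are cytidine deaminases that turn cytosine into uracil in single-stranded DNA. They restrict retroviruses and mobile elements by mutating their DNA copies, and most are known from blood cells, where interferon raises several of them. APOBEC3A and APOBEC3B also leave their mark on tumour genomes, and APOBEC3B is often highly expressed in breast cancer. The family grew by duplication, so neighbouring genes share long stretches of sequence. APOBEC3A, APOBEC3C and APOBEC3H encode a single deaminase domain, and the other members encode a pair.

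Peaks were taken from the gene bodies and 20 kb on either side, which joined into 1 window on chr22 (hg38) from 38932741 to 39124067, or 191327 bp. This window held 24 peaks in replicate 1 and 25 in replicate 2. They formed 27 regions of overlapping peaks, of which 22 were called in both replicates, 2 in replicate 1 only and 3 in replicate 2 only. When each list was cut to its 50000 strongest peaks, 5 regions were called in both. Over the whole genome 215195 regions were called in both. Peaks covered 4.49% of the window in replicate 1 and 4.61% in replicate 2. Among 15820 windows of this length along the genome, the median held 9 such regions (quartiles 4 and 19), and 78.4% held fewer than 22. Among the 9732 windows with a protein-coding transcription start site (TSS), the median was 14 and 67.4% held fewer. On chromosome 22 itself the median of 265 windows was 16.

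The strength of a peak is given as its height, the number of reads stacked at its highest base, which was recovered from the deposited fold enrichment over a genome-wide background (3.35 stacked reads for replicate 1, 3.52 for replicate 2). Intervals on heights are exact Poisson 95% intervals and cover counting error only. Height also moves with library depth and with the number of copies of the locus. Neither is given by the peak lists, and in bulk cells fewer cells with the site open and less cutting per cell cannot be told apart. The mean height of the 22 regions had a median of 65.5, against 42.5 over all regions called in both replicates and 44.5 over the 5055 on chromosome 22. Of the 22 regions, 15 stood above the median of all regions. A mean height over 100 was reached by 5 of 22, and by 24.3% of all regions.

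**Figure D1:**
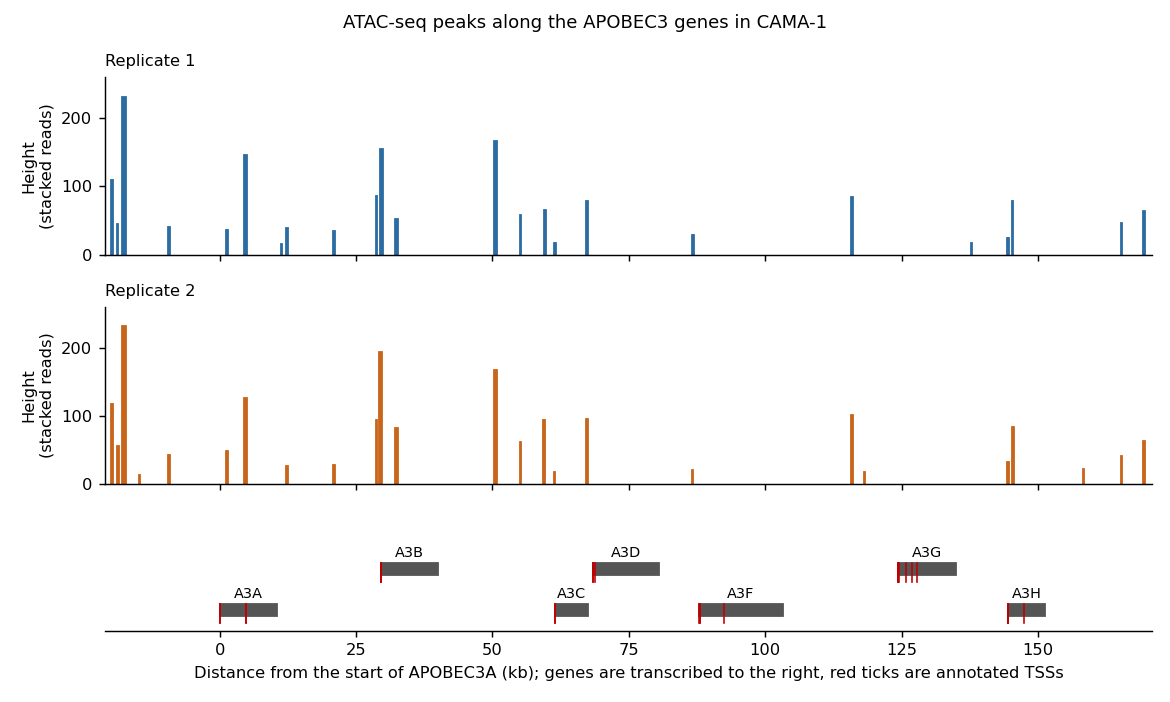
Peak heights in stacked reads (vertical axes, linear) in replicate 1 (upper) and replicate 2 (middle) against distance from the start of APOBEC3A in kb, with gene bodies as grey bars and annotated TSSs as red ticks below. Bars are the called peaks; they are dense and tall around APOBEC3A, APOBEC3B and APOBEC3C, and none was called inside APOBEC3D, APOBEC3F or APOBEC3G in either replicate.

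The heights of the replicates lay close together along the locus. The log2 ratio of replicate 2 to replicate 1 ran from −0.53 to 0.67 over the 22 regions, with a median of 0.10. Over all regions its median was 0.09 with an SD of 0.30, and the central 95% ran from −0.53 to 0.72. The Poisson intervals of the replicates overlapped in 22 of 22 regions, and were apart in 1.39% of all regions. The widest rise was in an intron of APOBEC3B and the deepest fall was 7343 bp downstream of the APOBEC3A TSS.

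**Figure D2:**
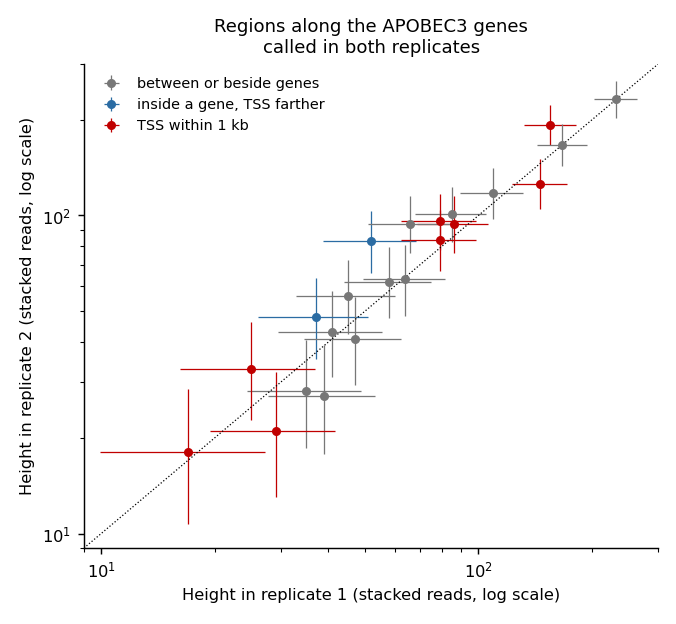
Height of each of the 22 regions in replicate 2 against replicate 1, in stacked reads on log axes, with exact Poisson 95% intervals as bars and the line of equal height dotted. Regions within 1 kb of an APOBEC3 TSS are red, regions inside a gene and farther from its TSS are blue, and the rest are grey; the intervals of the replicates overlap in 22 of 22 regions.

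A TSS peak, which is a peak within 1 kb of any annotated TSS of the gene, was called in both replicates for 5 of the 7 members, namely APOBEC3A, APOBEC3B, APOBEC3C, APOBEC3D and APOBEC3H. The same was true of 79.3% of all protein-coding genes. When each list was cut to its 50000 strongest peaks the count was 2 of 7, APOBEC3A and APOBEC3B, against 61.4% of protein-coding genes. Replicate 1 alone had a TSS peak for 6 members and replicate 2 for 5, the difference being APOBEC3F. All 7 members had a low CpG ratio (observed over expected CpG within 500 bp of the most 5′ TSS, below 0.6), a property shared by 40.0% of protein-coding genes. Of the 8008 genes below that ratio 60.4% had a TSS peak in both replicates, and of the 12025 others 91.9% did. The members' share in the full lists lay between these backgrounds. For the 50000 strongest peaks the share of genes with a low CpG ratio was not taken.

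By the mean height of the strongest TSS peak the order was APOBEC3B, APOBEC3A, APOBEC3D, APOBEC3H and APOBEC3C, and the order by −log10 q was the same. APOBEC3B and APOBEC3A, APOBEC3A and APOBEC3D, and APOBEC3D and APOBEC3H had intervals that overlapped in at least 1 replicate. APOBEC3C stood below APOBEC3H with intervals apart in both replicates. None of the members reached the median TSS peak of called protein-coding genes, which was 224 in replicate 1 and 240 in replicate 2. The medians of called genes with a low CpG ratio were 155 and 167. APOBEC3B equalled the first and exceeded the second, and the other members were below both.

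**Figure D3:**
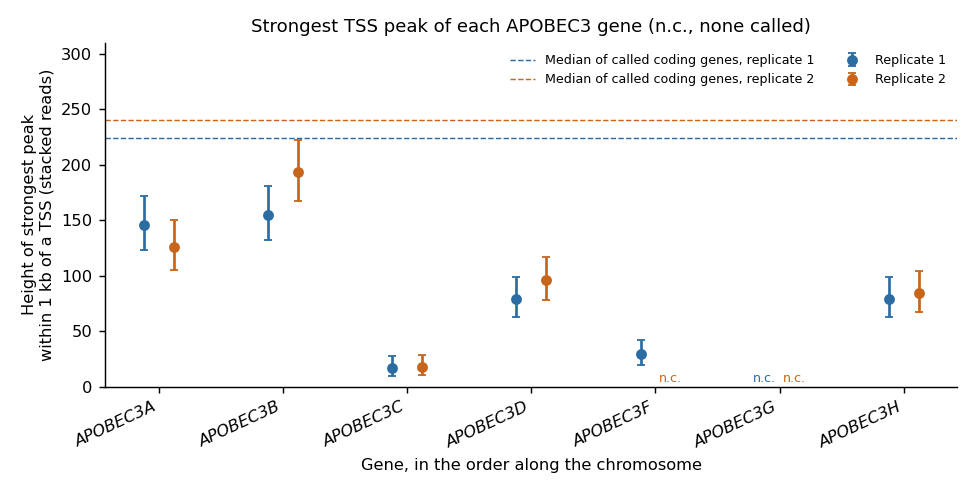
Height in stacked reads of the strongest peak within 1 kb of a TSS for each gene along the chromosome, in replicate 1 (blue) and replicate 2 (orange), with exact Poisson 95% intervals; dashed lines are the medians of called protein-coding genes and n.c. means that no such peak was called. APOBEC3A and APOBEC3B are highest, at 126 to 193, APOBEC3C is lowest of the genes called in both replicates, at 17 and 18, and APOBEC3G has none.

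The 200 bp around the midpoint of each region were searched on both strands for 12 motifs, chosen for factors of the cell cycle, inflammation and luminal breast cells. They were CHR (TTTGAA), E2F (TTCCCGCC), AP-1 (TGAGTCA or TGACTCA), ETS (CCGGAAG), AP-2 (GCCNNNGGC), ISRE, NF-kB, ERE and CTCF, together with the TATA motif spelled TATAAA, the FOX motif spelled TGTTTAC and the GATA motif spelled AGATAA. Matches of different motifs did not overlap each other in the 22 regions. A match is a run of letters and not a measured binding site. NF-kB letters were in 4 of the 22 regions (18.2%, against 5.08% of all 215195 regions) and AP-1 letters in 3 (13.6%, against 7.48%). CHR letters were in 2 regions (11.3% of all regions), as were TATA (8.06%) and GATA letters (9.36%). AP-2 (11.7%) and CTCF letters (2.37%) were in 1 region each. E2F (0.539%), FOX (5.61%), ETS (1.58%), ISRE (1.88%) and ERE letters (0.0646%) were in none of these windows. All 4 regions with NF-kB letters lay at APOBEC3A, APOBEC3B or APOBEC3C. The TSS regions of APOBEC3B and APOBEC3C are among them. They held the same run in starts that are close copies, so the share counts this run at both copies.

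Upstream of the genes, the strongest region of the whole locus lay 17237 bp before the first APOBEC3A TSS, in intergenic sequence. It spanned chr22:38934898-38935504 over both replicates and reached 231 (202 to 263) in replicate 1 and 232 (203 to 264) in replicate 2. Its mean height was above that of 91.4% of all regions called in both replicates. A second region nearby, at 38932867 to 38933280, reached 109 and 118. The central 200 bases of the strongest region (chr22:38935102-38935301, hg38, forward strand) are shown because no member's TSS peak was as high. The capitals mark the TATA letters, read on the reverse strand.
strongest region upstream of APOBEC3A: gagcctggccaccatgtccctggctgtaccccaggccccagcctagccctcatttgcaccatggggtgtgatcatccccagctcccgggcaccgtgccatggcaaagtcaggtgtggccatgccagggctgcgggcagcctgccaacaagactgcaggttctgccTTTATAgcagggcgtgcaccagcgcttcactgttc

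APOBEC3A (ENSG00000128383.14) is at 38952741 to 38963184 on the forward strand, as are all 7 members. It encodes a highly active enzyme best known from myeloid cells. Its TSS peak reached 146 (123 to 172) in replicate 1 and 126 (105 to 150) in replicate 2, or 136 ± 14.1 (SD, n = 2), with fold enrichments of 33.8 and 28.1. The intervals of the replicates overlapped. The peak, at 38957139 to 38957715 in replicate 1 and 38957141 to 38957742 in replicate 2, covered the TSS of the MANE Select transcript, the reference transcript of the gene, at 38957609. It did not reach the most 5′ TSSs, at 38952741 and 38952751, which begin longer transcripts. The closest peak to those was an intronic region at 38953973 to 38954277 with heights of 37 (26.1 to 51) and 48 (35.4 to 63.6), which began 1222 to 1235 bp downstream of them. The start under a peak was thus the internal one. Among called protein-coding genes, 31.4% in replicate 1 and 24.3% in replicate 2 had a lower TSS peak. The 200 bases at the centre of the intronic region (chr22:38954026-38954225, hg38, forward strand) are shown for their NF-kB letters, in capitals.
APOBEC3A intronic region: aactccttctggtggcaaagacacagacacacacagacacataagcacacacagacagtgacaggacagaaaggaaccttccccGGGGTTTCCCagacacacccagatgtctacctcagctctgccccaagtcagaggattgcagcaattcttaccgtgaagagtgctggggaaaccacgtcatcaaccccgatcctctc

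APOBEC3B (ENSG00000179750.16) is at 38982347 to 38992804. It encodes the nuclear family member that is often raised in breast cancer, and its transcription is known to respond to NF-kB signalling and to be held down in resting cells by the DREAM complex, which binds CHR and E2F elements. It had the tallest TSS peak of the members, at 155 (132 to 181) in replicate 1 and 193 (167 to 222) in replicate 2, or 174 ± 26.9 (SD, n = 2). The fold enrichments were 35.9 and 42.9, and 33.7% and 39.7% of called protein-coding genes had a lower TSS peak. The peaks spanned 38982068 to 38982658 and 38982020 to 38982521 and covered the MANE Select TSS at 38982347. In their central 200 bases were an NF-kB match at 38982279 to 38982288, an AP-1 match (TGACTCA) at 38982323 to 38982329 and a CHR match on the reverse strand at 38982407 to 38982412. No E2F match was found in these letters.

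Just upstream, 710 bp before the APOBEC3B TSS, a separate region reached 86 (68.8 to 106) and 94 (76.0 to 115). An intronic region of APOBEC3B at 38984947 to 38985481, which began 2541 bp downstream of its last TSS, reached 52 (38.8 to 68.2) in replicate 1 and 83 (66.1 to 103) in replicate 2. Its intervals overlapped only narrowly, and its log2 ratio of 0.67 was the largest of the locus. The intronic region held 3 AP-1 matches and 1 NF-kB match in its central 200 bases, the most matches of any region at the locus. The antisense RNA gene APOBEC3B-AS1 overlaps the 3′ end of APOBEC3B and had no peak in its body.

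APOBEC3C (ENSG00000244509.4) is at 39014257 to 39020352 and encodes a small enzyme with weak antiviral activity that is expressed in many tissues. Its TSS peak reached only 17 (9.90 to 27.2) in replicate 1 and 18 (10.7 to 28.4) in replicate 2, or 17.5 ± 0.707 (SD, n = 2), with fold enrichments of 4.14 and 4.20. These peaks covered the MANE Select TSS at 39014257, yet they were among the weakest TSS peaks of the genome. Only 0.447% and 0.604% of called protein-coding genes had a lower one. Stronger regions lay before and after the start. One at 39011990 to 39012494, 1763 bp upstream, reached 66 (51 to 84.0) and 94 (76.0 to 115). Another 10611 bp upstream, at 39003050 to 39003646, reached 167 (143 to 194) in both replicates and came next by mean height after the region upstream of APOBEC3A and the APOBEC3B TSS peak, although it exceeded that peak in replicate 1. The nearer one held an AP-1 match in its central 200 bases, and both were stronger than the APOBEC3C TSS peak in both replicates.

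The starts of APOBEC3B and APOBEC3C are close copies of each other. In the 1 kb around their MANE Select TSSs, 89.9% of 1000 aligned positions were identical. Their TSS peaks differed with intervals far apart in both replicates, at 155 against 17 in replicate 1 and 193 against 18 in replicate 2. The same 10-letter NF-kB run stood in the central 200 bases of both TSS regions, whereas the AP-1 letters of the APOBEC3B TSS had no match in the window at APOBEC3C, which held a GATA match. The place of the CHR letters lay outside the APOBEC3C window, and that of the GATA letters lay outside the APOBEC3B window. For these motifs the copies were therefore not compared. Of the 100-base words within 1 kb on either side of these TSSs, 2.89% at each gene had an exact copy elsewhere in the genome. No 100-base word inside either TSS region had such a copy. How far placement of reads between the copies bears on the difference was not tested.

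APOBEC3D (ENSG00000243811.12) is at 39021113 to 39033277 and encodes an enzyme with a pair of deaminase domains that can restrict HIV. Its TSS peak lay 775 bp upstream of its most 5′ TSS and inside the last exon of APOBEC3C, in the 3′ UTR, at 39019968 to 39020338. It reached 79 (62.5 to 98.5) in replicate 1 and 96 (77.8 to 117) in replicate 2, or 87.5 ± 12 (SD, n = 2), with fold enrichments of 18.4 and 21.4. These replicates had overlapping intervals. No peak covered an APOBEC3D TSS or lay in its body in either replicate, so its count as a gene with a TSS peak rests on a region of its neighbour. A readthrough gene (ENSG00000284554) runs from 39014363 to 39033276 across both genes, and its strongest TSS peak is the weak one of APOBEC3C.

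APOBEC3F (ENSG00000128394.17) is at 39040604 to 39055972 and encodes another enzyme with a pair of domains and activity against HIV. The nearest region was weak, at 29 (19.4 to 41.6) in replicate 1 and 21 (13 to 32.1) in replicate 2, with overlapping intervals. It ended 965 bp before the most 5′ TSS in replicate 1 and 1011 bp before it in replicate 2. The 1 kb limit fell between these distances, which is why APOBEC3F counted in replicate 1 only. From the end of that peak, at 39039640, to 39068406 no peak was called in either replicate. This stretch of 28.8 kb was the longest without a peak in the window and held the whole of APOBEC3F.

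APOBEC3G (ENSG00000239713.9) is at 39077067 to 39087743 and encodes the enzyme best known for restricting HIV that lacks its Vif protein. It was the member farthest from any peak. Of its 7 annotated TSSs none had a peak within 1 kb, and none was called in its body. The MANE Select TSS at 39077275 lay 8477 bp from the nearest peak in replicate 1 and 6179 bp in replicate 2, where that peak was a weak one of height 18 called in replicate 2 only. The nearest region of both replicates, at 39068407 to 39068815, was in an intron of the lncRNA gene ENSG00000289963 and reached 85 (67.9 to 105) and 101 (82.3 to 123). It lay 8252 bp before the first APOBEC3G TSS.

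**Figure D4:**
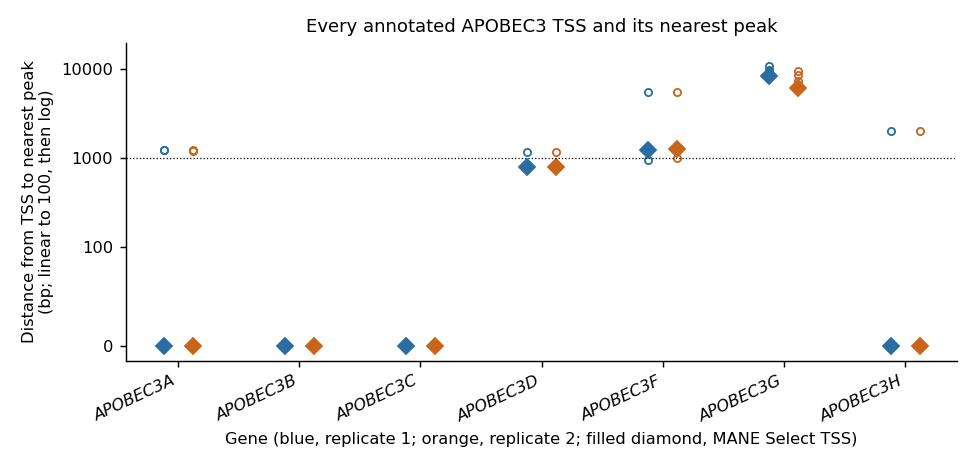
Distance in bp from every annotated TSS of each APOBEC3 gene to the nearest peak (linear to 100 bp, then log), in replicate 1 (blue) and replicate 2 (orange), with the MANE Select TSS as a filled diamond, other TSSs as open circles and the 1 kb limit dotted. The MANE Select TSS lies under a peak in APOBEC3A, APOBEC3B, APOBEC3C and APOBEC3H, 789 bp from one in APOBEC3D, and beyond 1 kb in APOBEC3F and APOBEC3G.

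APOBEC3H (ENSG00000100298.16) is at 39097224 to 39104067 and encodes the most diverged member, with common alleles that differ in stability. Over its MANE Select TSS at 39097244 lay a weak region of 25 (16.2 to 36.9) in replicate 1 and 33 (22.7 to 46.3) in replicate 2, or 29.0 ± 5.66 (SD, n = 2). A stronger region in an intron reached 79 (62.5 to 98.5) and 84 (67.0 to 104), or 81.5 ± 3.54 (SD, n = 2). The intervals of these regions were apart in both replicates. The intronic region began 708 bp downstream of a TSS in replicate 1 and 704 bp downstream in replicate 2, and it set the gene's place in the order by height. It held an AP-2 match. Downstream of the gene, a region at 39117949 to 39118215 reached 47 and 41, and one in an intron of CBX7 reached 64 and 63.

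Of the 7 members, APOBEC3H was the one matched by symbol in the RefSeq promoter table used here (GRCh38.p14). Its promoter, from 250 bases before to 50 after the annotated start (chr22:39096994-39097293, forward strand), is shown because the weak TSS peak lay over it, by 208 bases in replicate 1 and 260 in replicate 2. It held no match to any of the 12 motifs, so no letters are in capitals. Across the 35116 promoters of the table the share with a match ran from 0.0570% for ERE to 23.2% for AP-2, and was 15.2% for CHR, 11.3% for NF-kB and 4.95% for AP-1.
APOBEC3H promoter: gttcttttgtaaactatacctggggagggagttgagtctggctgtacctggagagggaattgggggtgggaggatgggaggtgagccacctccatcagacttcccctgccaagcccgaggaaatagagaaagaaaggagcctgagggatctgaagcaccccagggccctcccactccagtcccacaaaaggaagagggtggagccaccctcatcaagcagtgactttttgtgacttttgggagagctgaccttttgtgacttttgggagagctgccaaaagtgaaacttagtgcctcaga

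Since the genes are duplicates, the window was searched for words of 100 bases with an exact copy elsewhere in hg38 on either strand. A read with the letters of such a word would match the copy equally well. How such reads were placed was not tested. Such words made up 3.30% of the window, and most of them, 3.06% of the window, had the copy within it. The share was 8.33% in APOBEC3A, 10.8% in APOBEC3B, 0.400% in APOBEC3C, 6.33% in APOBEC3D, 8.16% in APOBEC3F, 3.09% in APOBEC3G and 0.0% in APOBEC3H. In the 760 bp between APOBEC3C and APOBEC3D it was 35.7%. None of the 22 regions held a copied word. With words of 50 bases the shares were 13.4% of the window and 5.27% of the regions, with 34.9% in the region 1763 bp before APOBEC3C, 27% in the one before APOBEC3F and 19.6% in the one in the APOBEC3C 3′ UTR.

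The 3 genes without a peak over their MANE Select TSS were also those with the most copied words around that TSS. Within 1 kb on either side of that TSS, words of 100 bases with a copy made up 12.4% at APOBEC3D, 14% at APOBEC3F and 16.2% at APOBEC3G. The share was 0.841% at APOBEC3A, 2.89% at APOBEC3B and at APOBEC3C, and 0.0% at APOBEC3H. Some other annotated starts at 0.0% had no peak within 1 kb in either replicate. These were at 38952741 and 38952751 (APOBEC3A), 39080635 (APOBEC3G) and 39100279 (APOBEC3H). The remaining APOBEC3H starts, also at 0.0%, lay under a peak. In the 1 kb around the MANE Select TSSs, APOBEC3F and APOBEC3G were 95.8% identical over 991 aligned positions. APOBEC3D was 98.6% identical to each over 483 positions. Most words within 1 kb on either side were unique at this length. What part reads with more than 1 match had in the missing peaks was not tested. The starts of APOBEC3A and the other members aligned over 25 to 138 positions only.

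**Figure D5:**
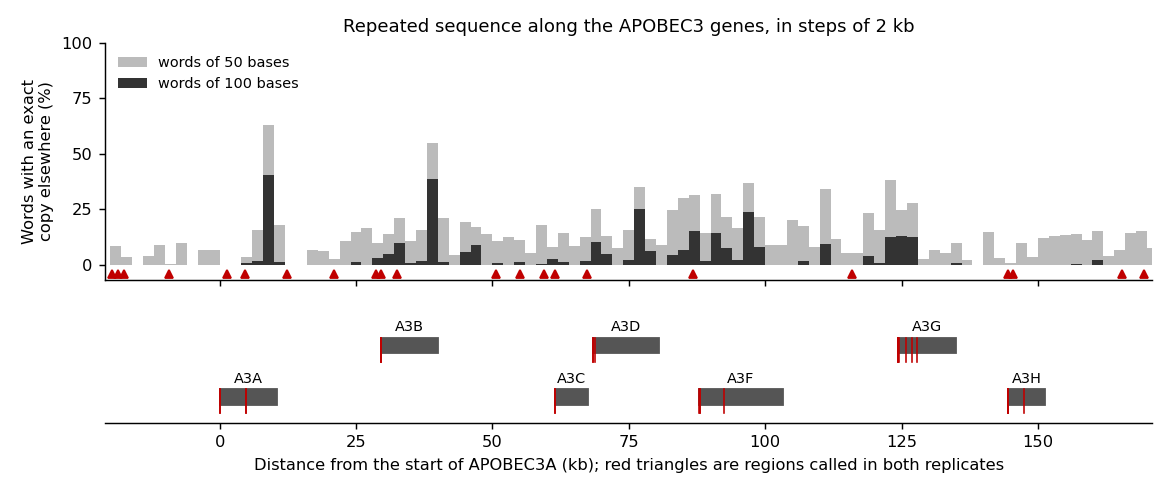
Share of words with an exact copy elsewhere in hg38 (%), in steps of 2 kb along the window, for words of 50 (grey) and 100 bases (black), against distance from the start of APOBEC3A in kb, with the regions called in both replicates as red triangles and the genes below. Copied words of 100 bases peak near the 3′ ends of APOBEC3A and APOBEC3B and are next highest inside the bodies of APOBEC3D and APOBEC3F, at 25% and 23.7%, with 1.6% to 15.3% in the steps that hold the most 5′ and the MANE Select starts of APOBEC3D, APOBEC3F and APOBEC3G.

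The nearest protein-coding genes on either side of the members encode Polycomb proteins that read methylated histone H3. CBX6 (38861422 to 38872249, reverse strand) had a TSS peak of 95 (76.9 to 116) in replicate 1 and 117 (96.8 to 140) in replicate 2. CBX7 (39120167 to 39152680, reverse strand), whose 3′ end lies inside the window, reached 189 (163 to 218) and 206 (179 to 236). Both have a high CpG ratio, of 0.966 and 0.945. Their heights lay within the range of the members with a TSS peak, or just above it in the case of CBX7.

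Among relatives of the family elsewhere in the genome, APOBEC4, of unknown enzymatic activity, reached 36 and 35. APOBEC1, the editor of apolipoprotein B mRNA in the gut, and APOBEC2, a muscle protein, had none in either replicate. Genes that repair the uracil left by deamination all had TSS peaks, 10 of 10, with a median of 254. The highest were MBD4, a thymine and uracil glycosylase, at 577 and 599, and TDG, a thymine glycosylase, at 498 and 561. The share of all protein-coding genes, 79.3%, is the background for each of these lists.

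Genes of the regulators named above were called throughout. Most of them did not have a low CpG ratio, and 91.9% of all such genes were called. Most of the restriction factors below had a low ratio, for which the share was 60.4%. All 13 genes of the DREAM and E2F list had TSS peaks, led by LIN52, a core DREAM subunit, at 580 and 602, and RBL2, its pocket protein, at 457 and 519. All 9 genes of the NF-kB list had them too, led by IKBKG at 611 and 640 and IKBKB at 512 and 556, which encode subunits of the IkB kinase. Of 10 other restriction factors, 9 had a TSS peak. ZC3HAV1, which binds CpG-rich viral RNA, reached 419 and 459, and BST2, which tethers budding virions, reached 313 and 327. TRIM22, an interferon-induced ubiquitin ligase, had no TSS peak. The median mean height was 264 in the DREAM and E2F list, 250 in the NF-kB list and 164 in the list of restriction factors, against 174 for APOBEC3B, the highest member. For all called protein-coding genes the median was 224 in replicate 1 and 240 in replicate 2.

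The label of the cells was checked against marker genes. All 8 luminal epithelial markers had TSS peaks in both replicates, against 79.3% of all protein-coding genes. The highest were KRT8, a luminal keratin, at 608 and 662, and KRT18, its partner, at 456 and 450. Of the blood markers, CD14 had one at 207 and 237, and PTPRC, CD3E, SPI1 and LYZ had none. These blood markers had low CpG ratios, of 0.0769 to 0.291. Of all genes with a low ratio, 60.4% had a TSS peak in both replicates. All 3 mesenchymal markers had one, the highest being COL1A1 at 318 and 303 and PDGFRB at 280 and 303. An open start is not a measure of expression, and RNA was not analysed here.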

How the data were processed

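ATAC-seq peaks of 2 biological replicates of CAMA-1 were used. The submitters' processing notes name Trim Galore 0.6.5, Bowtie2 2.3.5.1, MACS2 2.2.6 and hg38. MACS2 settings and the handling of duplicate reads were not given in the sources used here. Per peak, the authors deposited a score, a fold enrichment (ratio to background), and both −log10 p-values and −log10 q-values, and they called peaks in each replicate separately. The lists hold neither read counts nor depth.

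The deposited fold enrichment was read as (height + 1) / (background + 1), and its step (0.230 and 0.221 in replicates 1 and 2) gave heights. These ranged from 11 to 1744 and from 11 to 1759 (median 35 in both), and the lowest −log10 q was 2.24 and 2.07. Peaks were joined by overlap of at least 1 bp, and distances to TSSs ran from the nearer edge. Python 3.11.15 with numpy 2.4.6, scipy 1.17.1 and, for plots, matplotlib 3.10.9 was used, and functions were tested on simulated data.

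The members, gene lists and motifs were chosen with earlier results of these data known. Genes named are the members, the nearest protein-coding gene on each side, APOBEC relatives elsewhere and, in the other lists, genes without a TSS peak in both replicates and the 2 highest. Alternatives covered thresholds, distances, TSS sets, flanks, overlap, motif windows, word length and the omission of each replicate. Copy number and expression were not analysed here, and some genes and sequences of these lists and regions are not reported here.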

Additional observations from a re-analysis of the deposited data

How the results depend on the processing

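Over 12 results and 68 alternatives, 58 values stayed within 1.5 times (counts) or 1 SD of the reported ones, or kept the same order. For heights and coverage, leaving out 1 of 2 replicates stays within 1 SD by arithmetic. Heights were compared only where a gene kept a TSS peak, so lost peaks are not among the values that moved. With the 50000 strongest peaks of each replicate, 2 members (APOBEC3A and APOBEC3B) had a TSS peak against 61.4% of all coding genes (12292), 5 regions were found in both and peaks covered 1.41% of the window. Coverage was 4.20% at a −log10 q of 10 or more, 4.09% without flanks and 6.70% with flanks of 50 kb, where the regions numbered 16 and 33. Pairs of a region and a motif it held rose from 15 to 27 when whole regions were searched, and copied words from 3.30% to 13.4% with words of 50 bases. When each replicate was left out in turn, the members with a TSS peak numbered 5 to 6, all coding genes 16050 to 16147, the regions 24 to 25 and the coverage 4.49 to 4.61%. The member count depended on the limit: APOBEC3C was lost at a −log10 q of 10 or more, APOBEC3D with a limit of 100 bp (where APOBEC3H fell to 29.0), and APOBEC3A with the most 5′ TSS alone, while APOBEC3F was gained at 3 kb (where APOBEC3C reached 80.0 and 85.0% of coding genes were called). Distances from peak midpoints, an alternative chosen after seeing the data, gave 5 members. No paired analysis was possible because there was 1 condition only. The lists give peaks above a threshold only, so weaker accessibility at APOBEC3F and APOBEC3G was not detectable.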
